A study of Mus musculus with 6 samples.

Results

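The genes described here are 8 that write, remove or read DNA methylation, the methyl group on the cytosine of CG pairs. They were taken by name from the deposited transcript tables: the DNA methyltransferases Dnmt1, Dnmt3a and Dnmt3b (writers), the Tet dioxygenases Tet1, Tet2 and Tet3 (erasers), and the methyl-CpG binding proteins Mbd1 and Mbd2 (readers). Their 60 deposited transcripts were summed per gene, which gave 8 of 32564 genes. All 8 passed the filter on low counts that left 15012 genes for testing. The 6 RNA-seq libraries came from cells sorted as quiescent neural stem cells, which rarely divide and lie beside the lateral ventricles in the subependymal zone. The donors were gfap:GFP transgenic mice, 3 months old, of a strain spelled C56BL/6J in the labels. In these mice the promoter of Gfap, an astrocyte and stem cell gene, drives green fluorescent protein, so the gate could also take other astroglia. The cells were collected 3 days after an injection into the ventricles. It carried either aCSF, artificial cerebrospinal fluid, as the vehicle (3 libraries) or an antagomir against miR-204, a modified oligonucleotide that blocks this microRNA (3 libraries). All 6 libraries share the transgene, the age, the injection and the sort. No control oligonucleotide is named in the labels, and injecting any oligonucleotide cannot be told apart here from blocking miR-204. Nor do the labels say whether replicates were separate animals or pools, so every p-value here measures spread between samples that may be technical only.

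Dnmt1 copies methyl marks onto the new DNA strand after replication, guided by Uhrf1, and is known for its high level in dividing cells. Dnmt3a and Dnmt3b place methyl groups on CG pairs that had none, and Dnmt3a is known to be needed for neurogenesis in the postnatal subventricular zone. The Tet enzymes oxidise 5-methylcytosine, after which the base can be lost through replication or base excision repair. Mbd1 and Mbd2 bind methylated CG pairs and bring in repressors. Mbd2 does so as part of the NuRD complex, and Mbd1 is known from adult hippocampal neurogenesis.

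The sequences below are shown because the study blocked miR-204 and because a microRNA finds its targets through its seed. The mature miR-204-5p is encoded at chr19:22750610-22750631 on the plus strand, and the sequence is from RefSeq (GRCm38.p6), with the seed (bases 2 to 8) in capitals. The 3′ UTRs of the 8 genes (GENCODE M21, GRCm38) were searched on the transcript strand for AAAGGGAA (8mer), AAAGGGA without the final A (7mer-m8) and AAGGGAA without the first A (7mer-A1). Each site stands in a window of 30 bases with the match in capitals. The Tet1 windows are chr10:62805002-62805031 and chr10:62805721-62805750 on the minus strand, and the Tet3 window is chr6:83363523-83363552 on the minus strand. The Dnmt3a windows are chr12:3908155-3908184 and chr12:3909590-3909619 on the plus strand.
miR-204-5p: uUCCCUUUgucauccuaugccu
Tet1 8mer: ttcatgacattAAAGGGAAagagaatccta
Tet1 7mer-A1: ggcacaaatatAAGGGAAgaggccaaagaa
Tet3 7mer-A1: ccagagtgcttAAGGGAAggagcgtggttg
Dnmt3a 7mer-m8: ccttggagaggAAAGGGAgagagggaaaat
Dnmt3a 7mer-A1: ttggcagcgggAAGGGAAggtgtgcttggc

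In the most abundant complete transcript of each gene, 2 of the 8 held a match, Tet1 with 2 sites and Tet3 with 1. The same search found a match in 20.7% of 14340 genes. When any complete transcript with signal was searched, Dnmt3a was added, making 3 of 8 against 27.0% of 14298 genes. The Dnmt3a sites lie in the 6696-base UTR of Dnmt3a-201 and the 5744-base UTR of Dnmt3a-218, not in the 95-base UTR of Dnmt3a-205, which held more TPM than either. The Tet1 UTR is 7955 bases and the Tet3 UTR 5669 bases, against a median of 903 bases over the genes searched. A match is a description of letters and not a measured target. The 3 genes with a match had log2 fold changes (antagomir over vehicle) of 0.35 for Dnmt3a, -0.05 for Tet1 and 0.16 for Tet3, and none passed the test given below.

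The libraries held 14866453 to 19694409 estimated counts each. A count of 3 corresponds to 0.153 to 0.203 CPM (counts scaled to the library total with TMM factors) and all 8 genes stood well above it in every library, the lowest being Dnmt3b with 54 estimated counts in antagomir replicate 1. Markers of other cell types were present, with Vtn (mural cells) and Cd3e (T cells) at 0 in every library. The summed CPM of 10 oligodendrocyte genes was 9701 to 20433 in the vehicle libraries and 15469 to 22033 in the antagomir libraries, beside 26250 to 28703 and 19963 to 26000 for 14 astrocyte and quiescent stem cell genes. None of these 14 was at 0 throughout, and Gfap, whose promoter defined the gate, had 189 to 556 CPM with vehicle and 180 to 294 CPM with the antagomir. Vehicle replicate 1 stood apart in 12 microglia and macrophage genes, with a sum of 2633 CPM against 186 to 410 in the other 5 libraries. In such bulk samples, fewer cells of a type and less RNA per cell cannot be told apart. The part of these other cells in the results below was not tested.

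The groups were compared with the quasi-likelihood test of edgeR, with p-values adjusted by Benjamini-Hochberg over all 15012 genes tested. At an adjusted p under 0.05 it called 0 genes (0.0%) and so 0 of the 8. DESeq2 called 1 gene (0.00666%), which was not one of the 8. At an unadjusted p under 0.05 edgeR had 616 genes (4.1%), again none of the 8. The CPM ranges of the groups did not overlap in 10.5% of all tested genes and in 1 of the 8, Dnmt3a, with the antagomir libraries higher (5.07% of all genes in that direction, and 5.45% in the other). Log2 fold changes were positive for 3 of the 8 genes and negative for 5 (3 of these 5, Tet1, Mbd1 and Mbd2, turned positive on the log2(TPM + 1) scale), with a median of -0.03, beside a median of -0.01 and 49.1% positive over all tested genes. Between 3 and 3 libraries the smallest p of an exact test is 0.1.

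**Figure D1:**
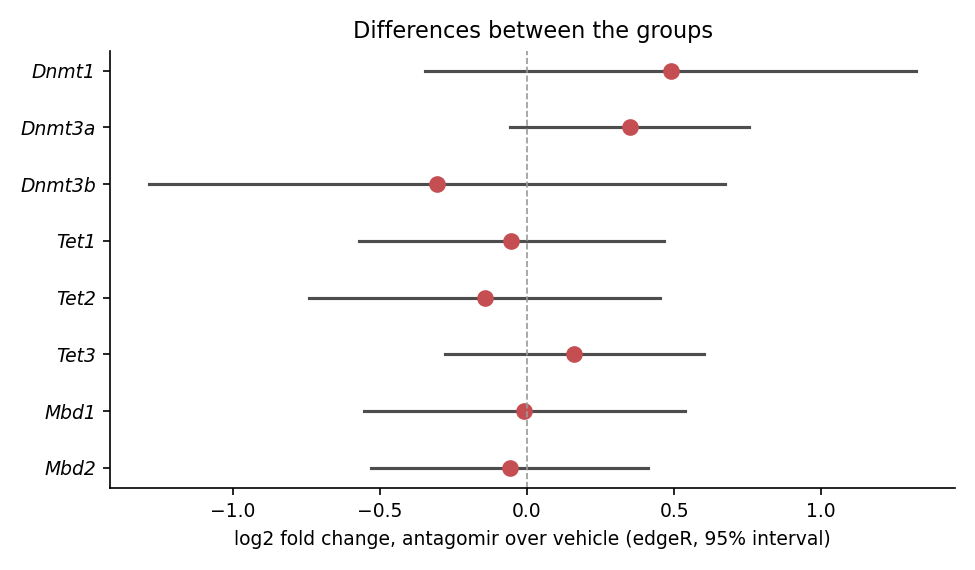
Log2 fold change of antagomir over vehicle (points) with the 95% interval from edgeR (bars) for each of the 8 genes, 3 libraries a group. Every interval crosses 0, and the widest belong to Dnmt1 (-0.35 to 1.32) and Dnmt3b (-1.29 to 0.67).

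The levels of the 8 genes are compared with each other in TPM, an abundance per unit of transcript length with an equal sum over every library. Mbd2 (mean of 6 libraries 85.6 TPM) and Dnmt3a (74.7 TPM) were the most abundant, at the 85.2 and 82.6 percentile of tested genes, and they held the first and second places in every library. Mbd2 was ahead of Dnmt3a in 4 libraries and behind it in vehicle replicate 1 and antagomir replicate 3, so the order of these neighbours was within their spread. Tet2 (26.7 TPM), Dnmt1 (26.5), Tet3 (25.1) and Mbd1 (24.9) changed places from library to library and did not differ beyond their spread. Tet1 followed with 15.8 TPM and was sixth or seventh everywhere. Dnmt3b was last in all 6 libraries with 3.19 TPM, at the 16.1 percentile.

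**Figure D2:**
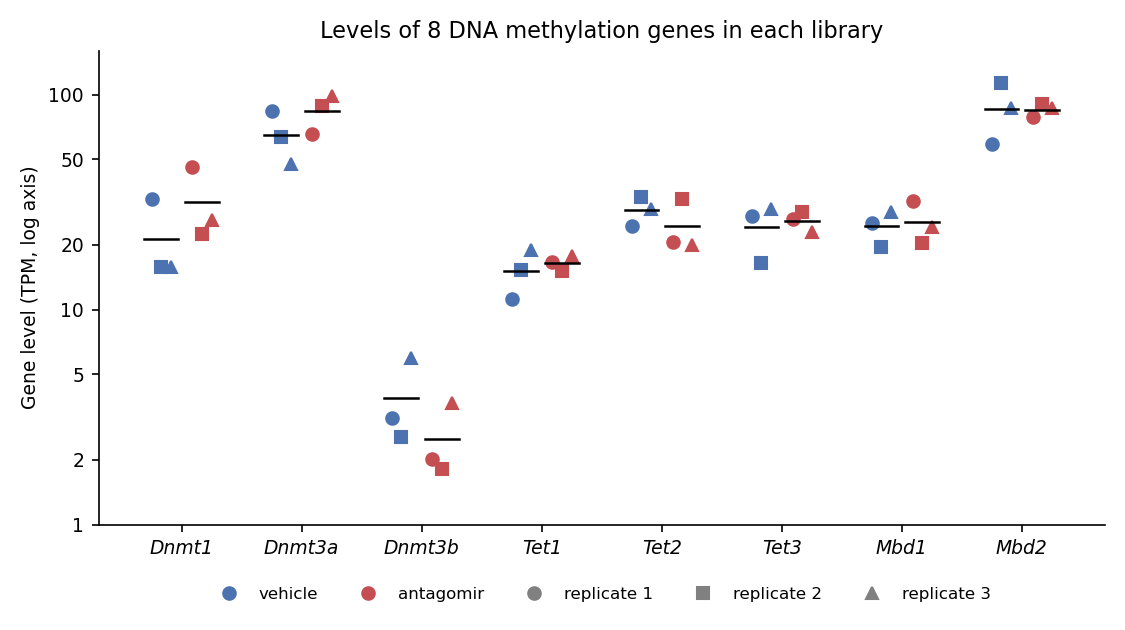
Gene level in TPM (log axis) of the 8 genes in each library, with vehicle in blue, antagomir in red, the shape giving the replicate and the bar the group mean (n = 3). Dnmt3b lies between 1.82 and 5.93 TPM, below all other 7 genes in each library, and the 2 groups overlap for every gene on this scale.

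Part of this signal was assigned to transcript models that encode no protein or only a fragment of one, and this share differed between the genes. Dnmt1 and Mbd1 have only models with a complete coding sequence among the deposited transcripts, so their share of 100% was fixed in advance. Complete models held 85.8% of the TPM of Mbd2. They held 50.1% for Dnmt3a, 62.5% for Dnmt3b, 36.9% for Tet2, 25.3% for Tet3 and 17.1% for Tet1 (means of 6 libraries). By estimated counts, which long transcripts dominate, the shares were 82.5% for Dnmt3a, 90.0% for Dnmt3b, 85.1% for Tet2, 70.0% for Tet1 and 52.5% for Tet3. On complete models alone the order of mean levels was Mbd2 (72.9 TPM), Dnmt3a (37.2), Dnmt1 (26.5), Mbd1 (24.9), Tet2 (9.83), Tet3 (6.21), Tet1 (2.64) and Dnmt3b (1.74). This order and the sums that follow depend on which models of each gene are among the deposited transcripts. The 3 erasers together then held 15.1 to 23.1 TPM per library and the 3 writers 39.7 to 84.6 TPM, while on all models the erasers held 60.8 to 77.6 TPM and the writers 69.4 to 129 TPM. The groups overlapped in both sums on complete models.

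**Figure D3:**
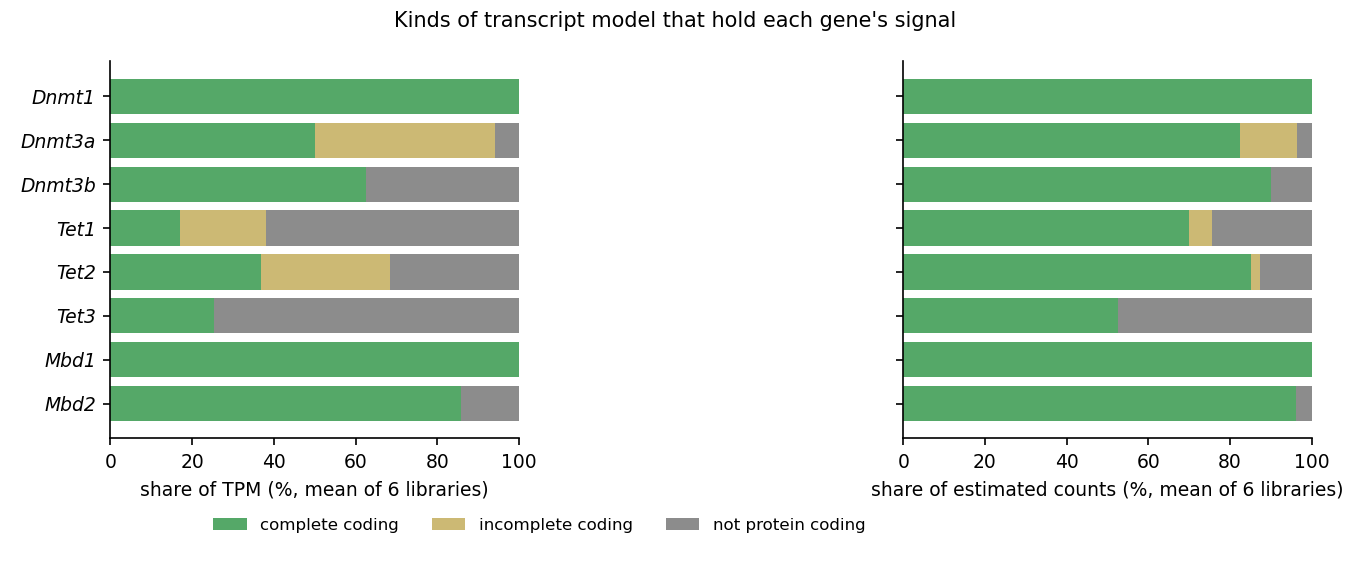
Share of each gene's TPM (left) and estimated counts (right) held by complete coding, incomplete coding and non-coding transcript models, in percent, as the mean of 6 libraries. Complete models hold 17.1% of the Tet1 and 25.3% of the Tet3 TPM. They hold all of the Dnmt1 and Mbd1 signal because the deposited transcripts of these genes include no other kind.

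Among the writers, Dnmt1 (chr9:20907209-20959888, minus strand) had the largest spread. Its CPM in vehicle replicates 1, 2 and 3 was 106, 49.6 and 51.9, and in the antagomir replicates 141, 69.9 and 80.7. The highest library was antagomir replicate 1, followed by vehicle replicate 1, and the groups overlapped through vehicle replicate 1. The log2 fold change was 0.49 (95% interval -0.35 to 1.32) with an edgeR adjusted p of 0.949. Without vehicle replicate 1 it was 0.95 (edgeR adjusted p = 0.599), and without antagomir replicate 1 it was 0.12 (edgeR adjusted p = 1.00). Leaving out these 2 libraries moved it most. Leaving out each of the others gave 0.30 (without vehicle replicate 2) to 0.68 (without antagomir replicate 2). Between the highest and lowest library CPM differed 2.84-fold, against 1.49-fold (Tet1) to 1.93-fold (Tet2) for the other 7 genes.

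The same 2 highest and 2 lowest libraries were found in genes of DNA replication and of young neurons. The summed CPM of 17 S phase genes was 665, 351 and 394 in the vehicle replicates and 766, 560 and 500 in the antagomir replicates. For 12 neuroblast genes, which mark the migrating immature neurons made in this zone, the sums were 1750, 706 and 755 CPM and 2666, 1171 and 1121 CPM. In both lists, as for Dnmt1, antagomir replicate 1 was highest, vehicle replicate 1 second and vehicle replicates 2 and 3 lowest. So it was in 7 activated stem cell and progenitor genes (662, 387 and 376 CPM, then 974, 525 and 572 CPM). In 16 mitosis genes vehicle replicate 1 (691 CPM) came after antagomir replicates 1 (844 CPM) and 3 (753 CPM). Mki67, 1 of these, was highest in vehicle replicate 1, with 80.3 CPM against 49.0 CPM in antagomir replicate 1. Uhrf1, which brings Dnmt1 to replicated DNA and was chosen here after its values were seen, had 50.9, 30.2 and 31.5 CPM with vehicle and 70.0, 50.5 and 41.9 CPM with the antagomir. Its log2 fold change was 0.53 (edgeR adjusted p = 0.949). Of the S phase genes 16 of 17 and of the neuroblast genes 12 of 12 had a positive log2 fold change, and 0 of either list was called. Such one-sided lists were not particular to these. Positive were also 16 of 16 mitosis and 10 of 10 oligodendrocyte genes. Of the astrocyte and quiescent stem cell genes 0 of 14 were positive, and of the microglia and macrophage genes 0 of 12. Vehicle replicate 1 was also the library rich in microglia genes, whereas antagomir replicate 1 had the lowest microglia sum, 186 CPM. Whether cell composition had a part in the spread of Dnmt1 was not tested.

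**Figure D4:**
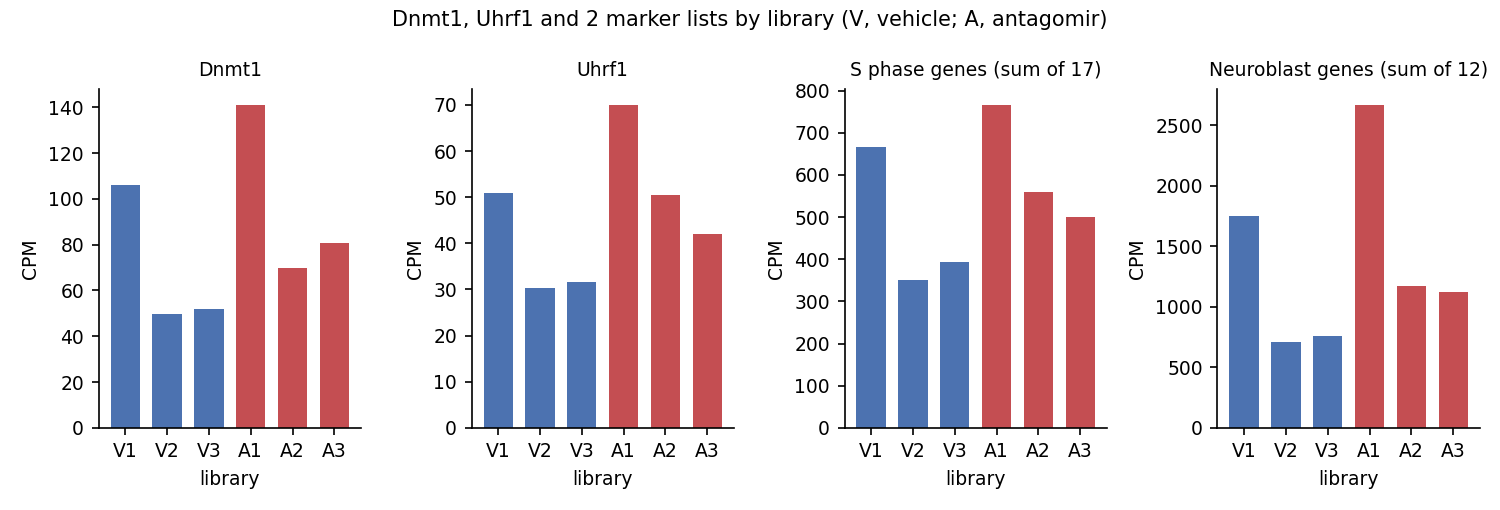
CPM of Dnmt1 and Uhrf1 and summed CPM of 17 S phase and 12 neuroblast genes in each library (V, vehicle replicates 1 to 3, blue; A, antagomir replicates 1 to 3, red). In all 4 panels A1 is the highest bar, V1 the second, and V2 and V3 are the lowest.

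Dnmt1 has annotated starts that differ in their first exon. As background, a somatic first exon is known in the mouse, with an oocyte first exon upstream of it whose protein lacks the N-terminal end. The 2 windows of 250 bases before the main starts are printed, with CG pairs in capitals, because the signal was divided between these starts. They are chr9:20959889-20960138 before the upstream start (Dnmt1-202) and chr9:20952980-20953229 before the inner start (Dnmt1-201), both on the minus strand (RefSeq, GRCm38.p6).
Dnmt1 upstream start: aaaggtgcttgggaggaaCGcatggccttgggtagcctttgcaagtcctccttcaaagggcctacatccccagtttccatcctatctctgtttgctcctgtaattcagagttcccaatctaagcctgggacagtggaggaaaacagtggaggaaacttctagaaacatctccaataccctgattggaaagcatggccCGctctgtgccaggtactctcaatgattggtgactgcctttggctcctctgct
Dnmt1 inner start: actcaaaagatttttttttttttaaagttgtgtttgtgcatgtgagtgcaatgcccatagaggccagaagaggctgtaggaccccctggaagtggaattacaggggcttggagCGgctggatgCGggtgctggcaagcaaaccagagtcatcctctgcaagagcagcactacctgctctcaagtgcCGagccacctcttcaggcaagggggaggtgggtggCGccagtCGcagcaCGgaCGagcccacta

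The upstream window holds 2 CG pairs, and 81.2% of 32851 promoter windows of the same length hold at least as many. The inner window holds 7, and 46.3% of windows hold at least as many, with a median of 6. The inner transcript Dnmt1-201 encodes 1620 residues. It was assigned 58.8, 52.3 and 33.4% of the Dnmt1 TPM in the vehicle replicates and 64.0, 54.6 and 57.3% in the antagomir replicates. Vehicle replicate 3 was the low library and the groups overlapped (difference 10.4 points, exact permutation p = 0.3, adjusted over 7 genes 0.7). Without vehicle replicate 3 the difference was 3.06 points. The upstream transcript Dnmt1-202 encodes 1501 residues. It was assigned 38.8, 47.7 and 58.8% of the TPM with vehicle and 33.4, 42.6 and 40.1% with the antagomir. A further model, Dnmt1-203, whose start lies inside the gene downstream of both, held 0 to 7.84% of the TPM. The split rests on few bases. Of the 31-base windows of Dnmt1-201, 304 of 5337 occur in no other Dnmt1 transcript, and 154 of 5218 of Dnmt1-202. The shares are therefore estimates of the quantification model.

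Dnmt3a (chr12:3806007-3914443, plus strand) was the one gene whose groups did not overlap in CPM. It had 115, 103 and 78.4 CPM in the vehicle replicates and 118, 140 and 119 CPM in the antagomir replicates. The lowest library was vehicle replicate 3, and the gap between the groups lay between 115.2 and 118.5 CPM. The log2 fold change was 0.35 (95% interval -0.06 to 0.76, edgeR adjusted p = 0.949). As a ratio this is 1.27 with an interval of 0.961 to 1.69, so a change of 2-fold in either direction lies outside the interval. In TPM the groups overlapped, with 83.7, 63.5 and 47.6 for vehicle and 65.4, 88.9 and 98.8 for the antagomir.

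Dnmt3a also starts in 2 regions of the gene, and its internal start is known to give a shorter protein without the N-terminal region. A window from each is printed for the same reason as for Dnmt1, with CG pairs in capitals. They are chr12:3806730-3806979 in the upstream start region and chr12:3891494-3891727 before the internal start, both on the plus strand (RefSeq, GRCm38.p6). The upstream window precedes the RefSeq start at 3806980 and not one shared start: of the 6 models counted there, 3 start upstream of the window, at 3806007 (Dnmt3a-212), 3806498 (Dnmt3a-202) and 3806527 (Dnmt3a-206), and 3 downstream of it, at 3807030 (Dnmt3a-201), 3807058 (Dnmt3a-204) and 3807160 (Dnmt3a-218). The second is 234 bases long because it was ended before the first annotated exon base there.
Dnmt3a upstream region: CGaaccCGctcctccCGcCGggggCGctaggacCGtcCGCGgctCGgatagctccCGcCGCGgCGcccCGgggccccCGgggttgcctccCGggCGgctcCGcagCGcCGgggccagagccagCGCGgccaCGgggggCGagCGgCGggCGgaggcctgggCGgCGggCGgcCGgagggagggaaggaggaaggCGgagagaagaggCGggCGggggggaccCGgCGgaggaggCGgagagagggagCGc
Dnmt3a internal start: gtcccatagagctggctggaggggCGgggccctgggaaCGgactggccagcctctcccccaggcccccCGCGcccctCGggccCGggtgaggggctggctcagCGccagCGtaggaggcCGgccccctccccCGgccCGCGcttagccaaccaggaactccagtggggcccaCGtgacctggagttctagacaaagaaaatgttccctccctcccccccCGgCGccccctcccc

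The upstream window holds 38 CG pairs, a number reached by 1.88% of the 32851 promoter windows, and the internal window holds 15, reached by 27.3% (counted over its full 250 bases). Both Dnmt3a windows hold more CG pairs than both printed Dnmt1 windows. A further Dnmt1 window, before the start of Dnmt1-203, overlaps an annotated exon and is not printed. It holds 26 CG pairs, a number reached by 9.59% of windows, and so more than the internal Dnmt3a window. Transcripts from the upstream region include Dnmt3a-201 and Dnmt3a-218, which encode 908 residues. They and 4 others were assigned 60.6, 71.1 and 72.6% of the Dnmt3a estimated counts with vehicle and 74.5, 71.4 and 59.1% with the antagomir. The internal start transcript Dnmt3a-205, which encodes 689 residues, was assigned 38.7, 28.3 and 26.9% with vehicle and 24.9, 28.1 and 40.0% with the antagomir. The antagomir range enclosed the vehicle range. In TPM, Dnmt3a-205 was the leading transcript with 35.4% and 35.7% (exact permutation p = 0.9, adjusted over 7 genes 1). Few bases are particular to the internal start. Of the 5464 windows of 31 bases in its 2 models, Dnmt3a-205 and Dnmt3a-203, 159 occur in no other Dnmt3a transcript. For the 6 upstream models it is 8726 of 14886. Dnmt3a-205 alone has 16 of 2298, since it shares others with Dnmt3a-203, which had no count in any library.

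Dnmt3b (chr2:153649450-153687730, plus strand), the partner enzyme known for methylation of pericentromeric repeats, was low among the tested genes, at the 16.1 percentile by mean TPM. Its CPM was 4.56, 4.89 and 5.48 with vehicle and 3.28, 3.68 and 5.10 with the antagomir. Antagomir replicate 3 fell within the vehicle range and the other 2 antagomir libraries lay below it. The log2 fold change was -0.31 (95% interval -1.29 to 0.67, edgeR adjusted p = 0.953). The interval reaches from 0.410-fold to 1.59-fold, so with 54 to 108 estimated counts per library a difference of 2-fold downward was not excluded by the interval. Its leading model in TPM, Dnmt3b-211, is a retained intron of 756 bases that held 39.5, 18.1 and 50.8% of the TPM with vehicle and 16.9, 15.3 and 30.97% with the antagomir. These groups overlapped (difference -15.1 points, exact permutation p = 0.2, adjusted over 7 genes 0.7). In the counts Dnmt3b-211 made up 2.72 to 22.2 with vehicle and 1.46 to 7.07 with the antagomir.

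The ratio of Dnmt3a to Dnmt1 within a library does not depend on scaling between libraries. On the log2 TPM scale, with 0.1 added, it was 1.36, 2.00 and 1.59 with vehicle and 0.51, 1.98 and 1.91 with the antagomir. On this scale, over all transcript models, Dnmt3a was above Dnmt1 in every library, least so in antagomir replicate 1, where Dnmt1 was highest. On complete models alone the order was reversed in that library, with 37.3 TPM for Dnmt3a and 45.9 TPM for Dnmt1. It was also reversed there in CPM, with 118 for Dnmt3a and 141 for Dnmt1. The difference between the groups was -0.18 (exact permutation p = 0.8, adjusted over 4 ratios 1).

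The erasers differed between the groups by less than the spread between libraries. Tet1 (chr10:62804570-62908996, minus strand), a CG-binding dioxygenase known from pluripotent cells, had 28.5, 30.4 and 40.6 CPM with vehicle and 29.99, 38.8 and 27.2 CPM with the antagomir. Each group had 1 high library, vehicle replicate 3 and antagomir replicate 2, and the log2 fold change was -0.05 (95% interval -0.57 to 0.47, edgeR adjusted p = 0.986), turning to 0.15 on the log2(TPM + 1) scale and 0.07 with offsets for effective length. Its leading model in TPM was Tet1-202, a processed transcript of 1505 bases with 58.6% of the TPM with vehicle and 60.5% with the antagomir (exact permutation p = 0.8). The complete model Tet1-206, which encodes 2039 residues and carries both miR-204 matches printed above, had 2.31, 2.35 and 3.11 TPM with vehicle and 2.45, 3.51 and 1.95 TPM with the antagomir.

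Tet2 (chr3:133463679-133545139, minus strand), which lacks the DNA-binding CXXC domain of Tet1, had 57.2, 83.0 and 58.2 CPM with vehicle and 43.1, 80.4 and 56.0 CPM with the antagomir. The second replicate was highest in both groups and antagomir replicate 1 lowest. The log2 fold change was -0.14 (95% interval -0.74 to 0.45, edgeR adjusted p = 0.958). The short model Tet2-205, 423 bases with an incomplete coding sequence, held 37.7, 29.9 and 38.5% of the Tet2 TPM with vehicle and 27.7, 26.8 and 28.7% with the antagomir. Its groups did not overlap, the only such case among the 7 genes with more than 1 model (difference -7.65 points, exact permutation p = 0.1, adjusted over 7 genes 0.7). By estimated counts, where this short model is 14.5 to 36.6 counts per library, the difference was -0.82 points. The complete model Tet2-201, of 1912 residues, had 7.20, 8.79 and 5.69 TPM with vehicle and 5.79, 9.09 and 5.40 TPM with the antagomir.

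Tet3 (chr6:83362373-83459084, minus strand), the Tet enzyme known for oxidising the paternal genome of the zygote, had 68.6, 46.4 and 64.9 CPM with vehicle and 73.9, 68.1 and 59.2 CPM with the antagomir. Vehicle replicate 2 was the low library, and the other 5 lay between 59.2 and 73.9 CPM. The log2 fold change was 0.16 (95% interval -0.28 to 0.60, edgeR adjusted p = 0.953), and without vehicle replicate 2 it was 0.01. The processed transcript Tet3-201 held 67.8% of the Tet3 TPM with vehicle and 65.1% with the antagomir (exact permutation p = 0.8). The complete model Tet3-202, with 1668 residues and the printed 7mer-A1 match, had 3.11, 3.24 and 2.93 TPM with vehicle and 6.07, 3.70 and 3.85 TPM with the antagomir. The groups did not overlap in this transcript, which was singled out after its values were seen and was not tested. How often this occurs over all transcripts was not counted. The other coding model, Tet3-203, with 1803 residues and no annotated 3′ UTR, had 4.18, 1.48 and 0.84 TPM and 2.61, 2.89 and 2.37 TPM, and these overlapped. The groups also overlapped in other models with a printed match, Tet1-206, Dnmt3a-201 and Dnmt3a-218. Dnmt3a-201 had 5.73, 5.29 and 6.24 TPM with vehicle and 6.71, 7.55 and 4.82 TPM with the antagomir. For Dnmt3a-218 it was 2.71, 5.16 and 0.66 TPM, then 7.51, 6.60 and 3.51 TPM.

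Within libraries the balance of the Tet genes did not differ beyond its spread. The log2 ratio of Tet3 to Tet2 in TPM was 0.15, -1.02 and 0.00 with vehicle and 0.36, -0.20 and 0.20 with the antagomir (difference 0.41, exact permutation p = 0.4, adjusted over 4 ratios 1). Vehicle replicate 2, with low Tet3 and high Tet2, was the library apart, and without it the difference was 0.04. The ratio of Tet3 to Tet1 differed by -0.03 (exact permutation p = 1).

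The readers also differed between the groups by less than the spread between libraries. Mbd1 (chr18:74267605-74282732, plus strand), which binds methylated CG pairs and histone methyltransferase complexes, had 40.1, 30.2 and 45.4 CPM with vehicle and 47.9, 30.8 and 36.2 CPM with the antagomir. The second replicate was lowest in both groups, and the log2 fold change was -0.01 (95% interval -0.55 to 0.54, edgeR adjusted p = 0.998), and 0.05 on the log2(TPM + 1) scale. Mbd1 has 1 transcript in the deposited tables, so nothing can be said of its isoforms. Mbd2 (chr18:70568189-70626131, plus strand) had 63.8, 109 and 78.3 CPM with vehicle and 76.8, 81.3 and 83.1 CPM with the antagomir. The vehicle libraries enclosed the antagomir libraries on both sides, with an SD of 23.2 against 3.28 CPM (n = 3 each). The log2 fold change was -0.06 (95% interval -0.53 to 0.41, edgeR adjusted p = 0.982), and 0.03 on the log2(TPM + 1) scale. As folds, the intervals were 0.681 to 1.45 for Mbd1 and 0.693 to 1.33 for Mbd2, which bounds a difference without showing that the groups were alike.

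Mbd2-201, the complete model of 414 residues, held 93.5, 85.2 and 73.6% of the Mbd2 TPM with vehicle and 88.1, 78.1 and 86.6% with the antagomir (exact permutation p = 1). The rest included Mbd2-204, a model of 494 bases without a coding sequence, listed at 0 in vehicle replicate 1 and at 17.6 TPM in vehicle replicate 3. The log2 ratio of Mbd2 to Mbd1 in TPM was 1.23, 2.52 and 1.61 with vehicle and 1.29, 2.15 and 1.83 with the antagomir (difference -0.02, exact permutation p = 1). Mbd2 exceeded Mbd1 in every library.

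The partners of these genes were read from 7 lists with 76 genes, of which 72 were tested. None passed an edgeR adjusted p of 0.05, 5 had an unadjusted p under 0.05 (4 higher, 1 lower; 4.1% of all tested genes) and 47 of 72 had a positive log2 fold change. In 12 of the 72 the groups had no overlap, against 10.5% of all tested genes.

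Partners of Dnmt1 in maintenance methylation had positive log2 fold changes in 10 of 10 tested genes, with a median of 0.42, which moved to 0.72 when vehicle replicate 1 was left out and to 0.24 when antagomir replicate 1 was. Hells, the chromatin remodeler of heterochromatin, had 6.64, 3.00 and 3.35 CPM with vehicle and 11.9, 11.5 and 6.86 CPM with the antagomir (log2 fold change 1.22, edgeR adjusted p = 0.949). Cdca7l, a relative of the Hells partner Cdca7, had 8.78, 6.97 and 7.46 CPM and 16.4, 11.9 and 12.9 CPM, a log2 fold change of 0.83 (edgeR adjusted p = 0.949). In both genes the antagomir libraries all lay above the vehicle libraries. Several of these partners, such as Pcna, Uhrf1 and Hells, are also known as genes of dividing cells, and 16 mitosis genes summed to 691, 270 and 242 CPM with vehicle and 844, 664 and 753 CPM with the antagomir. The part of cell division in the level of these partners was not tested. Dppa3, which keeps Uhrf1 from chromatin in oocytes, had no count in any library.

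In the list around de novo methylation, 4 of 7 tested genes were positive, with a median of 0.03. Ehmt1, a histone H3 lysine methyltransferase, had 54.1, 54.2 and 40.2 CPM with vehicle and 96.7, 55.7 and 56.8 CPM with the antagomir (log2 fold change 0.49, edgeR adjusted p = 0.949), and antagomir replicate 1 stood above the rest. Trdmt1, once named Dnmt2 and known to methylate tRNA, had a log2 fold change of -0.58 (edgeR adjusted p = 0.949) with overlapping groups. Dnmt3l, the cofactor without catalytic activity that stimulates Dnmt3a in germ cells, had no count in any library.

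Of the genes for 5-methylcytosine removal and base excision repair, 9 of 12 were positive, with a median of 0.34, which moved to 0.21 on leaving out vehicle replicate 1 and to 0.12 on leaving out antagomir replicate 1. Lig3, the ligase that seals repaired strands, had 44.2, 60.2 and 55.5 CPM with vehicle and 64.2, 68.2 and 78.9 CPM with the antagomir (log2 fold change 0.40, edgeR adjusted p = 0.949). Its groups did not overlap. Tdg, the glycosylase that cuts out the bases made by the Tet enzymes, had a log2 fold change of 0.45 (edgeR adjusted p = 0.949) and overlapping groups, with 53.9 CPM in antagomir replicate 1 and 18.7 to 32.3 CPM elsewhere. Partners of the Tet enzymes and the supply of their cofactor 2-oxoglutarate had 5 of 10 positive, with a median of -0.04. Idh3b, a subunit of the mitochondrial isocitrate dehydrogenase, had a log2 fold change of -0.15 (edgeR adjusted p = 0.949) with non-overlapping groups.

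The list of other methyl-CpG readers also holds genes placed there as members of the Mbd family, such as Mbd5. It had 5 of 8 negative log2 fold changes, with a median of -0.26. Zbtb33, the zinc finger reader also called Kaiso, had 5.23, 2.57 and 4.06 CPM with vehicle and 1.82, 1.74 and 0.28 CPM with the antagomir (log2 fold change -1.62, edgeR adjusted p = 0.949). Every antagomir library was below every vehicle library and antagomir replicate 3 was near the floor of 0.167 CPM. Mbd5, a family member, had 20.4, 20.9 and 26.1 CPM and 17.8, 15.7 and 18.8 CPM, a log2 fold change of -0.37 (edgeR adjusted p = 0.949), also without overlap. On the log2(TPM + 1) scale the median of this list was -0.06, and leaving out vehicle replicate 1 or 3 gave -0.14 or -0.16.

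Of the NuRD and corepressor subunits, through which Mbd2 acts, 8 of 14 were positive, with a median of 0.06. Mta3 had 20.9, 22.7 and 21.8 CPM with vehicle and 28.3, 32.5 and 31.8 CPM with the antagomir (log2 fold change 0.50, edgeR adjusted p = 0.949). Its groups did not overlap. In the supply of the methyl donor S-adenosylmethionine, 8 of 11 were positive, with a median of 0.06. Nnmt, which uses up the donor, was close to the floor at 0 to 1.58 CPM, and Shmt2, of mitochondrial one-carbon metabolism, had a log2 fold change of -0.15 (edgeR adjusted p = 0.956).

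**Figure D5:**
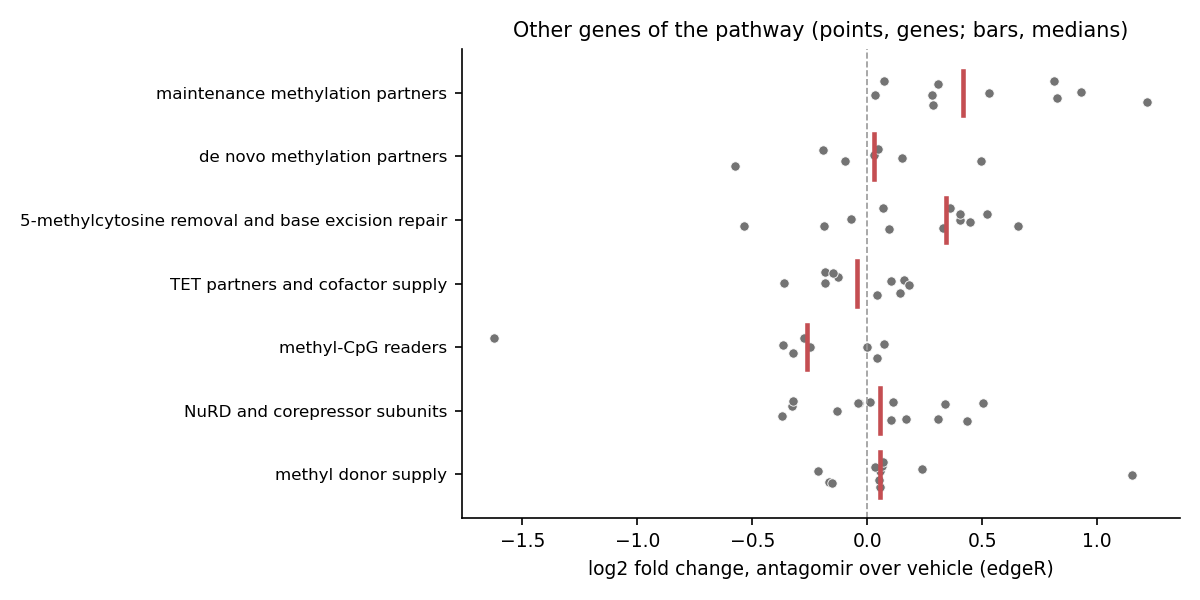
Log2 fold change of antagomir over vehicle for the 72 tested genes in 7 lists (points), with the list median (red bar). The medians run from -0.26 for the list of methyl-CpG readers and Mbd family members to 0.42 for maintenance methylation partners, and no single gene was called.

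For each of the 8 genes, the 2 most similar profiles over the 6 libraries were sought among 10581 tested genes with a mean of at least 10 CPM, by the root mean square difference of centred log2 CPM. Dnmt1 was nearest to Marcks, an actin-regulating kinase substrate (difference 0.08), and Syn1, a synaptic vesicle protein (0.10). Dnmt3a was nearest to Rfwd3 and Poc1b, and Dnmt3b to Zfp703 and Polr3gl. Tet1 was nearest to Agap1 and Tars2, Tet2 to Mzf1 and Gas8, and Tet3 to Ercc5 and Psmd11. Mbd1 was nearest to Cenpq and Tfe3, and Mbd2 to Zscan29 and Tmem30a. Marcks had 529, 229 and 227 CPM with vehicle and 594, 343 and 379 CPM with the antagomir, with the same 4 highest libraries in the same order as Dnmt1 and vehicle replicates 2 and 3 lowest. With 6 libraries these are descriptions of likeness.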

How the data were processed

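Kallisto, sleuth and the build mm10 are named in the submitters' processing notes. Their versions are not given in the sources used here. Reads from a cDNA kit that does not mark strand (SMART-Seq v4, per the labels' protocols) were counted. The deposited estimated counts (expected counts) are unnormalized, per the file headers, and the TPM values the authors deposited divide them by effective length. Effective length, also in the deposited files, was used for 1 alternative. Counts were summed per gene over 98294 of 99567 transcripts (98.7%) that matched GENCODE M21 (GRCm38) and rounded. edgeR 4.0.16 (R 4.3.3) was fitted to all 6 libraries, with TMM factors, filterByExpr (minimum count 10), the robust quasi-likelihood test and Benjamini-Hochberg adjustment over 15012 genes, and 0.05 as the threshold. The biological coefficient of variation was 36.2%, and no pair of libraries was alike within sampling noise. Shares of transcripts and ratios were compared with exact two-sided permutation tests.

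The members and lists were chosen with earlier results of these data known. Named were all 8 members, the 2 genes per list with the smallest p and the 2 nearest profiles per member. Some genes this rule takes are not reported here. Uhrf1, Dppa3, Dnmt3l and Tet3-202 were singled out after their values were seen, as was the grouping of transcripts by start. Not used as groups were the labels' treatment texts, which name the antagomir for all 6 samples. As alternatives, DESeq2 1.42.0, limma 3.58.1 (voom and log2 TPM), other scaling factors and filters, length offsets, the replicate number as a term and leaving out each library were run. Floors cover counting error only.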

Additional observations from a re-analysis of the deposited data

How the results depend on the processing

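With 3 libraries a group the precision is limited by their spread: 0 of the 8 genes was called under any of 17 other settings, and DESeq2 called 1 of all genes where edgeR called 0. Dnmt1, Dnmt3a and Tet3 stayed positive and Dnmt3b negative in all of these fits, with leave-one-out ranges of 0.12 to 0.95, 0.22 to 0.48, 0.01 to 0.28 and -0.51 to -0.18 (log2). The signs of the genes with the smallest differences were not stable, and the cause was not tested. Tet1 (-0.05) was 0.074 with length offsets, 0.15 with log2(TPM + 1) and 0.16 with log2(TPM + 0.1). Mbd1 (-0.01) was 0.0051 without a filter, 0.0088 with length offsets, 0.054 with log2(TPM + 1) and 0.056 with log2(TPM + 0.1). Mbd2 (-0.06) was 0.031 and 0.032 on those 2 TPM scales. Leave-one-out ranges were -0.21 to 0.13 for Tet1, -0.41 to 0.05 for Tet2 (positive without vehicle replicate 2 or antagomir replicate 1), -0.20 to 0.14 for Mbd1 and -0.21 to 0.18 for Mbd2. The leading transcript share differed between the groups by -0.32 points for Dnmt3a and -0.35 for Mbd2 when taken from counts, and by -0.56 for Mbd2 among coding models. Its leave-one-out ranges were 3.06 to 15.8 (Dnmt1), -24.1 to -7.76 (Dnmt3b), -10.4 to -6.08 (Tet2), -1.35 to 2.03 (Dnmt3a), -2.33 to 6.97 (Tet1), -7.73 to 2.90 (Tet3) and -5.09 to 4.86 (Mbd2). The log2 ratio of Tet3 to Tet1 (-0.03) was 0.23 from CPM and 0.51 from complete coding models, an alternative chosen after seeing the data. Leave-one-out ranges of the ratios were -0.44 to 0.29 for Dnmt3a to Dnmt1, 0.04 to 0.63 for Tet3 to Tet2, -0.31 to 0.27 for Tet3 to Tet1 and -0.30 to 0.34 for Mbd2 to Mbd1. Leave-one-out ranges of the smaller list medians were -0.07 to 0.16 (de novo partners), -0.07 to 0.07 (Tet partners), 0.02 to 0.11 (NuRD) and 0.01 to 0.10 (methyl donor). Same-numbered replicates deviated together with correlations of 0.19, 0.07 and 0.03, so the numbers were not taken to pair the samples, and vehicle replicate 3 correlated best with another number. With the replicate block, 0 genes were called and Dnmt1 was 0.51 (edgeR adjusted p = 0.434). Unadjusted edgeR p-values depended on the setting. In the main fit they were 0.214 for Dnmt1 and 0.083 for Dnmt3a. With the replicate block they were 0.0051 and 0.040, and without vehicle replicate 1 they were 0.017 and 0.034.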
